A study of Mus musculus with 2 samples.

Results

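The genes of MHC class I antigen presentation and the related lipid presenter Cd1d1 were examined in MIN6 cells, a mouse insulinoma line from transgenic C57Bl/6 mice that secretes insulin in response to glucose. The 10 genes were taken as a named set (H2-K1, H2-D1, B2m, Tap1, Tap2, Tapbp, Psmb8, Psmb9, Nlrc5 and Cd1d1), and their probes were found by the RefSeq accession that each spot carries. They had 13 probes in 31 spots on each array, out of 39417 probes and 20653 named genes. H2-K1, Nlrc5 and Cd1d1 had 2 probes each and the other 7 genes 1 probe. The genes had been chosen with the difference between these arrays already known, so their differences are described and not tested, and every direction below is a description.

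One array held RNA of cells given lentivirus with mouse FTO in the vector PLVX-IRES-ZsGreen, and the other held RNA of cells given the same vector without FTO. Both cultures were at passages 15 to 20 and both carried the green fluorescent marker of the vector. There was 1 array per condition, so no test across samples was possible. The spread between cultures is unknown, and the single line limits what either array stands for. Fto itself had signals of 7301 on the FTO array and 5179 on the control array. After normalization they differed by 0.06 on the log2 scale (spot error 0.20), so this probe did not separate the arrays and the groups rest on the labels. Whether the probe reads the Fto sequence carried by the vector was not tested.

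All 9 beta cell markers examined, such as Ins1, Ins2 and Pdx1, were well above background on both arrays. Their normalized log2 differences lay above 0 for 2 and below 0 for 7, with a median of -0.12. They ran from -0.24 for Ins2 to 0.45 for Slc2a2. Of 9 macrophage and dendritic cell markers 7 could be examined. Itgam was the brightest, at 1426 on the FTO array and 1248 on the control array, followed by Cd74 at 363 and 280 and Csf1r at 322 and 322. Ptprc, which all leukocytes carry, had 33.7 and 38.0, H2-Aa had 20.6 and 18.3, and Itgax was not above background on either array. The summed signals of that list were 2391 and 2142 before any scaling between arrays, of which the FTO array was the brighter. After normalization 2 of the 7 lay above 0 and 5 below, with a median log2 difference of -0.26. The sums of 4 T cell markers were 6848 and 5031, mainly from Cd3e at 3906 and 2388 and Lck at 2869 and 2583, and their median difference was 0.11. The sums of 5 fibroblast markers were 951 and 721, with a median difference of 0.04. Those of 4 endothelial markers were 1562 and 1286, with all 4 below 0 after normalization and a median of -0.21. Cdh5 was the lowest of them at -0.78, and with a signal of 7.16 it did not clear the background test on the FTO array. Cd3d among the T cell markers and Pdgfra among the fibroblast markers were not above background on either array. The part of such cells in the values below was not tested.

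Class I molecules show peptides from inside the cell to CD8 T cells. Cytosolic proteins are cut by the proteasome, in which Psmb8 and Psmb9 replace constitutive catalytic subunits, and the peptides are pumped into the endoplasmic reticulum by the Tap1-Tap2 transporter. There tapasin, encoded by Tapbp, holds the heavy chain of H2-K1 or H2-D1 with its light chain B2m next to the transporter until a peptide is bound. Nlrc5 is the transcriptional coactivator of these genes, and interferon raises most of them. Cd1d1 resembles a class I heavy chain and also pairs with B2m, but it presents lipids to natural killer T cells. In pancreatic islets, class I on beta cells is the molecule that autoreactive CD8 T cells recognise in type 1 diabetes.

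The promoters of H2-K1, H2-D1 and B2m and the stretch shared by Psmb9 and Tap1 are shown because these genes make up the complex at the cell surface and the neighbouring pair that feeds it. Sequences are from RefSeq on build GRCm38.p6, 5′ to 3′ on the strand named. The promoter table held 7 of the 10 genes. Capitals mark letters that match 1 of 4 motifs on either strand, which were the core of the interferon-stimulated response element (GAAA, any 2 bases, GAAA), a shorter IRF motif chosen after the sequences had been read (GAANTGAAA), a κB motif (GGGA, any base, T, any 2 bases, CC) and CCAAT. The first 2 motifs overlap in their letters, and the κB motif can match both strands at neighbouring positions.
H2-K1, minus strand, chr17:34000334-34000518, before its more downstream annotated start: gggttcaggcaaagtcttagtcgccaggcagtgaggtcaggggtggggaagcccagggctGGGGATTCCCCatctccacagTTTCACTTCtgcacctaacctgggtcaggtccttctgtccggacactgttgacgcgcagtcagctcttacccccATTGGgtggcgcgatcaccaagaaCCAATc
H2-D1, plus strand, chr17:35262909-35263093, before the start: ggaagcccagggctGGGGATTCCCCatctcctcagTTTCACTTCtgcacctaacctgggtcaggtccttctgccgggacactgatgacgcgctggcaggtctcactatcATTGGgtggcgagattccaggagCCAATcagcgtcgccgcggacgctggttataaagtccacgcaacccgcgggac
B2m, plus strand, chr2:122147502-122147686, before the start: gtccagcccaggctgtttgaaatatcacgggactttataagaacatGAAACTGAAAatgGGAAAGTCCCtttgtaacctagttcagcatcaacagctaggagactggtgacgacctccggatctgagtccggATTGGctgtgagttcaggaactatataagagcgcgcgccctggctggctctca
Psmb9 and Tap1, plus strand, chr17:34187331-34187555, the 225 bases between the 2 starts, with Psmb9 read to the left and Tap1 to the right: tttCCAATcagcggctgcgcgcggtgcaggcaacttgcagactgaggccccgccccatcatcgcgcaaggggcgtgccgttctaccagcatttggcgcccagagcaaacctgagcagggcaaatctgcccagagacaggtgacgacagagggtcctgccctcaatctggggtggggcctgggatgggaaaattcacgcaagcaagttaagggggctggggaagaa

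Over the 139 aligned positions of the H2-K1 and H2-D1 stretches 88.5% were identical, and both hold the κB letters, the shorter IRF letters and a pair of CCAAT boxes in the same order. B2m holds the interferon core, the κB letters and 1 CCAAT box. Psmb9 and Tap1 share a single CCAAT box, and neither IRF motif nor the κB motif is in the letters between them. Among 32851 annotated promoters, read over 250 bases before the start, 2.98% hold the interferon core, 1.5% the shorter IRF motif, 3.44% the κB motif and 33.8% CCAAT. In the annotation Psmb9, Tap1, Psmb8 and Tap2 lie next to one another with no other gene between them. The matches describe letters only, and their absence from a window says nothing about the factors.

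All 13 probes were well above background on both arrays and no spot was saturated. The deposited signals were background-corrected within each array but not scaled between arrays, and the FTO array was brighter. Its median ratio to the control array was 1.27 over the 33844 tested probes, meaning those that cleared the background test on either array. This ratio changed with brightness. It was 1.06 for probes with a control signal of 8 to 16, was 1.35 for signals of 16384 to 65536 and was 1.09 above 131072. The arrays were therefore quantile normalized, and a log2 difference below is the normalized FTO value minus the control value. The spot error beside it combines the errors that the scanner software gave for 1 spot on each array, averaged where a probe had several spots. It is not reduced for the number of spots, and it does not cover the spread between cultures. It was 0.20 for all member probes except the dimmer Nlrc5 probe and the Cd1d1 probes. Probes printed 10 times had a smaller median SD of spot log2 ratios, 0.06 at control log2 signals between 10 and 12 and also between 12 and 20. A difference within the spot error can therefore exceed the spread of repeated spots. Fewer cells of a kind and less RNA per cell cannot be told apart in such extracts. Levels of different probes are not comparable, so only differences are set against one another.

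**Figure D1:**
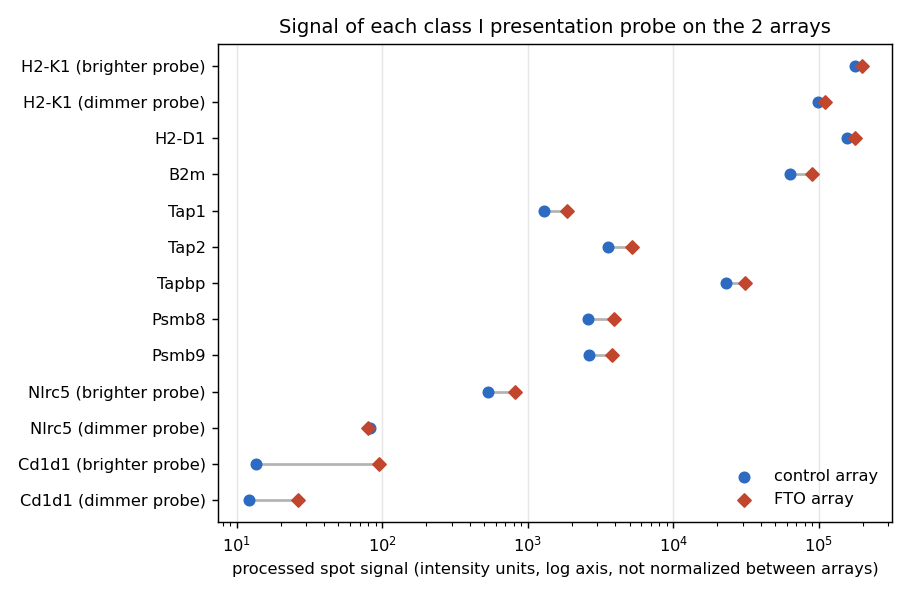
Processed spot signal of the 13 probes on a log axis, with a circle for the control array and a diamond for the FTO array, before scaling between arrays. The Cd1d1 probes lie at the dim end and are the furthest apart, at 94.8 against 13.5 and 26.2 against 12.1, whereas the heavy chains lie near the top with both symbols close together.

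The heavy chains did not differ between the arrays beyond their spot error. H2-D1 had signals of 175776 on the FTO array and 156128 on the control array, and differed by 0.01 on the log2 scale (spot error 0.20). The brighter H2-K1 probe read 196989 and 177183, and the log2 difference was -0.01. The dimmer H2-K1 probe read 109894 and 98538, and the log2 difference was -0.15. The unscaled ratios were 1.13 for H2-D1 and 1.11 and 1.12 for the brighter and dimmer H2-K1 probes. For H2-D1 and the brighter H2-K1 probe these are near the typical ratio at that brightness. Probes with control signals above 131072 had a median ratio of 1.09, with 90% of them between 0.978 and 1.24. Those from 65536 to 131072 had a median of 1.23, with 90% of them between 1.07 and 1.42. The dimmer H2-K1 probe lies in the lower part of this range. Heavy chain genes are close in sequence, so part of a probe's signal could come from another class I gene, which was not tested. Scaling by the 75th percentile, which moves all probes of an array by the same amount, placed both H2-K1 probes at -0.27 and H2-D1 at -0.25.

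The light chain B2m had signals of 89122 on the FTO array and 62846 on the control array, a ratio of 1.42 before scaling. Probes from 16384 to 65536 had a median ratio of 1.35, with 90% of them between 1.15 and 1.54. After normalization B2m was 1.11-fold higher on the FTO array, a log2 difference of 0.15 (spot error 0.20). It lay between 0.08 and 0.22 in the scaled alternatives.

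The peptide transporter genes were slightly higher on the FTO array, by less than the error of a single spot. Tap1 had a mean signal of 1854 on the FTO array and 1300 on the control array, or 0.12 on the log2 scale after normalization (spot error 0.20). The Tap1 value is a mean over 10 spots, so an error of single spots overstates how uncertainly the arrays read it. Tap2 read 5230 and 3577, with a log2 difference of 0.13. Tapbp, the tapasin gene, read 31202 and 22880, with a log2 difference of 0.02.

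Tap1 and H2-K1 each had a probe printed 10 times, which gives the spread within an array. The Tap1 spots ran from 1787 to 2010 with a median of 1844 on the FTO array and from 1209 to 1365 with a median of 1313 on the control array. These ranges do not overlap before scaling. In pairs at the same position the log2 ratio before scaling ran from 0.41 to 0.62, with a mean of 0.51 and an SD of 0.06 over 10 spots. The 8 H2-K1 spots without an outlier flag ran from 178177 to 219492 with a median of 198082 on the FTO array, and from 164145 to 185123 with a median of 176847 on the control array. These ranges overlap, although the pairs had a log2 ratio before scaling between 0.12 and 0.25 (SD 0.04). Over 67 probes printed 10 times with a control log2 signal between 10 and 12, the median SD of such pairs was 0.06. The spots of 1 array measure the same extract, so these SDs say how well an array reads a probe and not how cultures vary. The unscaled Tap1 ratio was 1.43, beside a median of 1.33 for all probes with control signals of 1024 to 4096.

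**Figure D2:**
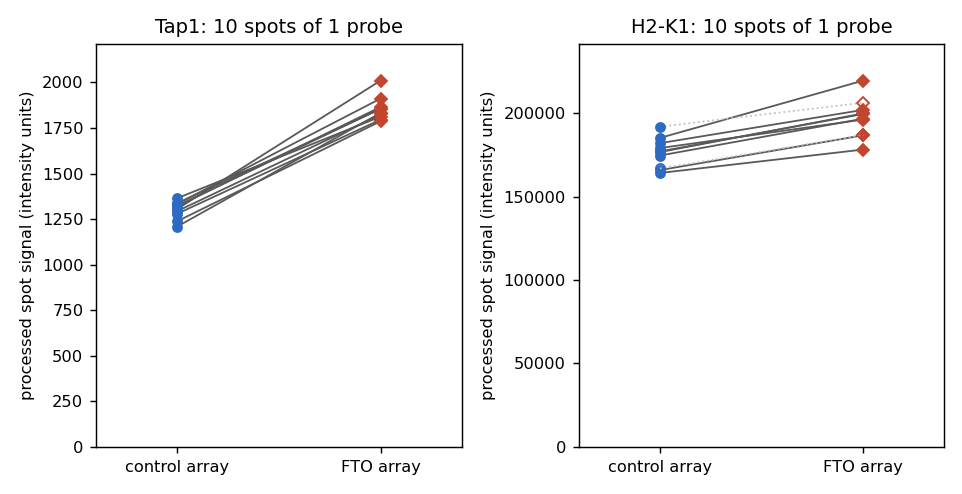
Processed signal (intensity units, axis from 0) of the 10 spots of the Tap1 probe and of the brighter H2-K1 probe, joined by position between the control array and the FTO array. Open symbols and dotted lines mark spots with an outlier flag. The Tap1 spots do not overlap between arrays (1787 to 2010 against 1209 to 1365), while the H2-K1 spots do.

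Repeated spots lost signal in 6 of 35 blocks of the FTO array and in 2 of the control array, and spots were compared inside and outside the 6. Of the Tap1 spots 2 lay in such blocks, with a mean log2 ratio before scaling of 0.50, and the 8 other spots had 0.52. Of the H2-K1 spots without a flag 3 lay there, at 0.15, and the 5 others had 0.18. The brighter Nlrc5 probe had its spot in 1 of these 6 blocks, and the Cd1d1 spots lay outside the 6. Whether any of these spots lay in the 2 blocks of the control array was not examined.

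The immunoproteasome subunits were also within their spot error, but their differences were larger than the median SD of repeated spots at their brightness, 0.06. Psmb8 had signals of 3918 on the FTO array and 2601 on the control array, or 0.18 on the log2 scale. Psmb9, which shares its promoter region with Tap1, read 3766 and 2614, and its log2 difference of 0.12 equalled that of Tap1 at this rounding. The constitutive subunits that they replace gave 0.04 for Psmb5, the counterpart of Psmb8, and 0.22 for Psmb6, the counterpart of Psmb9. Psmb10, the other inducible catalytic subunit, had 0.18 and its counterpart Psmb7 had 0.10. The inducible subunit was higher than its counterpart by 0.14 for Psmb8, higher by 0.08 for Psmb10 and lower for Psmb9, with a value of -0.09, and none of these gaps exceeds the spot error of 0.20 of a single difference.

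The probes of Nlrc5 disagreed in direction. The brighter probe had signals of 816 on the FTO array and 535 on the control array or 0.26 on the log2 scale (spot error 0.20). The dimmer probe read 79.2 and 82.8, or -0.24 on the log2 scale (spot error 0.21). Among the 11 class I probes of the 10 genes, only these differences were larger than their spot error. The gap between the probes was 0.49, with a combined error of 0.30. Over 4608 genes with a pair of probes well above background on both arrays the median gap was 0.14, and 8.38% had a gap over 0.5. Spots around the brighter probe, within 5 rows and columns, had a median difference of 0.01, and those around the dimmer one had -0.12. No direction is given for Nlrc5.

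Cd1d1 was the member that differed by more than 2-fold, and both of its probes did so in the same direction. The brighter probe had a signal of 94.8 on the FTO array and 13.5 on the control array. On the log2 scale it differed by 2.72 (spot error 0.31), which is 6.59-fold higher on the FTO array. The dimmer probe read 26.2 and 12.1, or 1.08 on the log2 scale (spot error 0.38) and 2.12-fold higher. Only 74 of the 33844 tested probes had a larger positive difference than the brighter probe, and 369 had a larger one than the dimmer probe. Of all tested genes 1.09% were more than 2-fold higher by their brightest probe and 1.6% more than 2-fold lower. Of all tested probes these shares were 1.29% and 2.18%. Since the genes were chosen on this contrast, nothing is read from the count of 1 of 10.

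Cd1d1 was dim on the control array, and its values have to be read with that. The control signals were 1.34 and 1.20 times the weakest signal that still cleared the background test there. Before background removal the spot of the brighter probe had a median pixel intensity of 149.5 over a local background of 31 on the FTO array, and 62 over 32 on the control array. The spot of the dimmer probe had 77 over 27 and 58 over 28. Among dim probes well above background on both arrays, with a mean log2 signal of 6 or less, 1.83% were more than 2-fold higher and 2.3% more than 2-fold lower. In 25 probes printed 10 times with a control log2 signal between 3 and 4, where the Cd1d1 probes lie, the log2 ratio before scaling of single spots had a median SD of 0.52. Of their 236 spot pairs 7 reached the ratio of the dimmer Cd1d1 probe, which was 1.11, and none reached the 2.81 of the brighter one. The largest was 1.59. In the next brighter class, with a control log2 signal between 4 and 6, 9 of 558 spot pairs reached the ratio of the dimmer probe, none that of the brighter, and the largest was 2.54. Cd1d1 was among genes chosen with their differences known, out of 33844 tested probes. The far fewer spot pairs therefore cannot show how often spot noise alone reaches such a ratio. Spots around the Cd1d1 probes had median differences of 0.06 and -0.08.

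The size of the Cd1d1 difference depended on the background correction and on any offset added to the signals. Normexp correction with an offset of 50 gave 1.05 for the brighter probe and 0.30 for the dimmer one, which fell under 2-fold. Normexp with no offset gave 2.02 and 0.74, and the offset alone, added to the deposited signals, gave 1.13 and 0.28, both chosen after seeing the data. Scaling by the 75th percentile gave 2.39 and 0.69, so the dimmer probe again fell under 2-fold. Cyclic loess placed it at 0.93, and normalization over only the probes above background on both arrays at 0.92. The gap of 1.64 between the probes exceeded its combined error of 0.49, so the probes shared a direction and not a size. Cd1d2, a close relative of Cd1d1, had no named probe and was not analysed here, and whether its transcript adds to either signal was not tested.

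**Figure D3:**
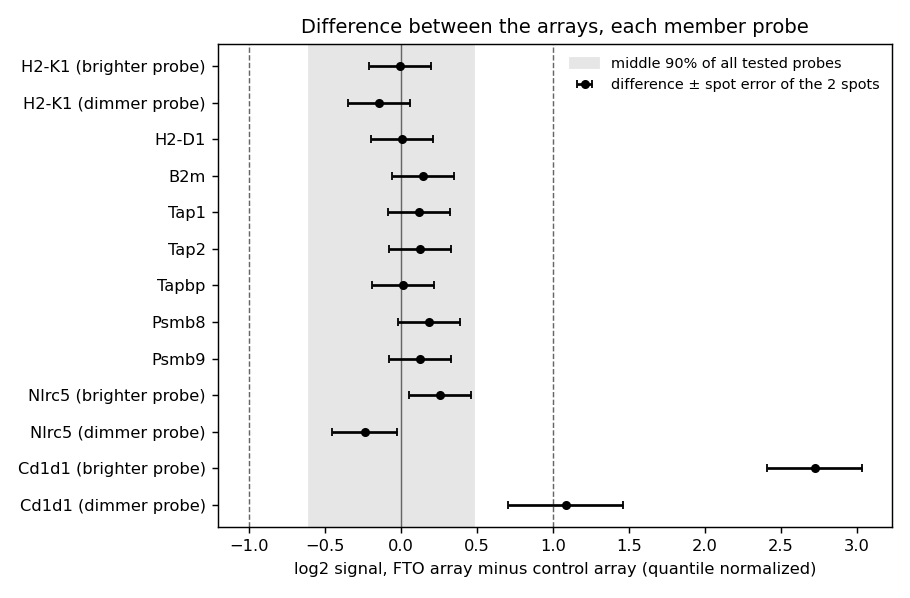
Log2 difference of the quantile normalized signals, FTO array minus control array, for the 13 probes, with bars for the combined spot error, dashed lines at 2-fold and a grey band for the middle 90% of all tested probes. The 11 class I probes lie between -0.24 and 0.26 inside the band, and the Cd1d1 probes lie outside it at 2.72 and 1.08. The band covers probes of every brightness. For probes with a control signal of 8 to 16 the middle 90% of ratios before scaling, 0.31 to 2.37, holds the dimmer Cd1d1 probe at 2.16. For probes with a mean log2 signal above 10 the middle 90% of differences runs from -0.24 to 0.24. The class I probes that bright lie inside it, between -0.15 and 0.18.

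Counted by the brightest probe of each gene, 9 of the 10 genes lay above 0, against 51.6% of all tested genes, and H2-K1 was the exception at -0.01. The median of the 10 differences was 0.12, and it was 0.01 over all 18513 tested genes. A lower threshold of 0.322 on the log2 scale was passed only by Cd1d1 among the 10, and by 7.79% of tested genes upward and 9.02% downward. The number above 0 was 7 with the block median subtracted and 10 with normexp (with or without the offset) or with outlier spots kept, since H2-K1, H2-D1 and Tapbp lie so close to 0.

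**Figure D4:**
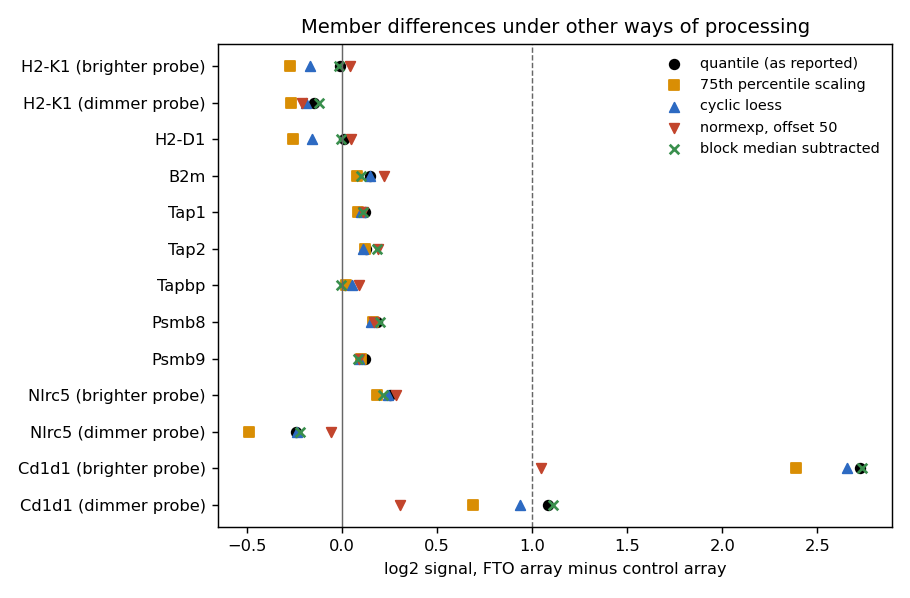
Log2 difference of the 13 probes under quantile normalization and under 4 other ways of processing, with 1 symbol for each. B2m, Tap1, Tap2, Psmb8, Psmb9 and the brighter Nlrc5 probe stay above 0, H2-K1 and H2-D1 move to between -0.27 and -0.25 under 75th percentile scaling, and the Cd1d1 values shrink most under normexp with its offset of 50.

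Genes around the members were followed in 6 lists. Among the 9 chaperones and enzymes of peptide loading, all tested, 6 lay above 0 and 3 below, with a median of 0.09 and no gene past 0.322. Erap1, which trims peptides in the endoplasmic reticulum, had 0.31, with signals of 2791 and 1715, and Canx, the chaperone calnexin, had 0.23. Calr, which encodes calreticulin, had -0.18 and Hspa5, which encodes the chaperone BiP, -0.14. The median of this list turned to -0.12 under 75th percentile scaling and to -0.04 under cyclic loess, so it has no settled direction.

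Of the 8 genes for proteasome activators and other catalytic subunits 7 lay above 0, with a median of 0.08. The 11S activator genes Psme1 and Psme2 had 0.05 each. The lowest value was that of Psmb11, the thymus-specific catalytic subunit, which had a signal of 20.2 on the control array and did not clear the background test on the FTO array, at 3.20. With its FTO value raised to the weakest normalized signal that cleared the test on that array, it was 1.57-fold lower there. The spot error of its measured difference was 1.46 on the log2 scale, so a 2-fold difference is not shown.

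Other class I heavy chains, classical relatives and nonclassical genes alike, showed no common direction. Of 21 listed genes 17 had a named probe and 16 were tested, 8 above 0 and 8 below, with a median of -0.01. H2-M5 was highest at 0.95 with dim signals of 48.8 and 23.8 and a spot error of 0.26, just under 2-fold. H2-M3, which presents formylated peptides, had 0.24. By the brightest probe of each gene, the lowest values were -0.30 for H2-Q4 and -0.24 for H2-K2. The second H2-K2 probe had -0.04. The RefSeq record of H2-K2 is that of a non-coding transcript, and whether its probes read other heavy chains was not tested. H2-T24 had -0.15 by its brighter probe and -0.65, with a spot error of 0.31, by its dimmer one. Mr1, which presents vitamin metabolites, had 0.24 with signals of 144 and 107.

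Genes that load CD1d with lipid or carry it through the cell lay close to 0 on the whole. All 9 with a named probe were tested, 6 above 0 and 3 below, with a median of 0.01, and none passed 0.322. Psap, the precursor of the saposins that lift lipids onto CD1d, was highest at 0.27 with signals of 98684 and 64232. Mttp, a lipid transfer protein also needed for CD1d, had 0.14. Gm2a, another lipid transfer protein, had -0.06 by its brighter probe and 0.17 by its dimmer one, and Npc2 had -0.03.

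Class II genes, which present peptides from outside the cell and are mostly silent outside immune cells, had signals of at most 486 on the FTO array and 428 on the control array, both of H2-DMa. Of 11 listed genes 10 were tested, 6 above 0 and 4 below, with a median of 0.01 that turned to -0.25 under 75th percentile scaling. H2-DMb1, a class II peptide exchange factor, had 0.60 with a spot error of 0.40, past 0.322 upward, as H2-Ob was downward. Ciita, the class II counterpart of Nlrc5, had 0.14 with signals of 79.6 and 64.3, H2-Ob had -0.35 and H2-Ab1 had -0.32. A second H2-Ab1 probe had 0.14. Cd74, the invariant chain, had 363 and 280 and a difference of 0.06.

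The transcription factors known for class I promoters were tested in full, 7 of 12 above 0 with a median of 0.04. Rfxap, a subunit of the RFX complex that Nlrc5 works through, had 0.29 with signals of 3484 and 2170. Rfx5, the DNA-binding subunit, had 0.23 by its brighter probe and 0.73 by its dimmer one, with signals of 152 and 113 and of 144 and 76.5. Usf1 had -0.42, past 0.322, and Nfyc, a subunit of the CCAAT-binding factor, -0.19. Irf1, an interferon-induced activator of class I genes, had 0.02 with signals of 12869 and 9357.

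**Figure D5:**
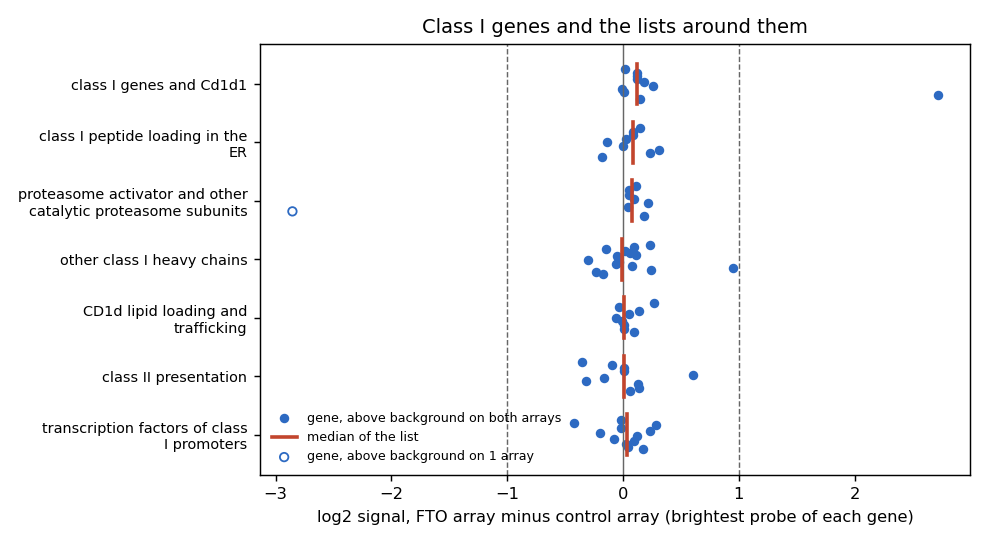
Log2 difference, FTO array minus control array, by the brightest probe of each gene for the class I genes with Cd1d1 and for the 6 lists around them. Each point is 1 gene, open points are above background on 1 array only, red bars are medians and dashed lines mark 2-fold. The medians lie between -0.01 and 0.12, and Cd1d1 stands apart at 2.72. The open point is Psmb11, drawn at its measured -2.85 with a spot error of 1.46. It is 1.57-fold lower with its FTO value raised to the weakest signal that cleared the background test there.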

How the data were processed

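MIN6 RNA labelled with Cy3 was measured on 1 one-color Agilent mouse array per condition. The authors deposited the intensity of each spot as written by Agilent Feature Extraction 11.0.1.1, with local background subtracted and the surface trend removed, together with median pixel intensities and flags, and not normalized between arrays. The authors also deposited log2 values of 33870 probes, quantile normalized in GeneSpring GX 11.5 per the methods. Flags of 0 or 1 in the deposited tables mark spots well above background, saturated spots and outliers.

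Control and outlier spots were left out. Repeated spots were averaged as log2 values, and quantile normalization used limma 3.58.1 (R 4.3.3, with Python 3.11.15, pandas 2.3.3, numpy 2.4.6 and matplotlib 3.10.9 for other steps). A probe with several spots was well above background where at least 50% of them were. A gene was called where its brightest tested probe differed by more than 2-fold. Accessions were named through RefSeq (GRCm38.p6); the array lists an older build, so its spots are given no coordinates. Every member probe was described; from each list, genes past 2-fold and otherwise the 2 highest and 2 lowest above background on both arrays were named, and further genes were added after their values were seen. The members and lists were chosen with earlier results of these data known. Precision is limited by 1 array per condition. The alternatives were other scalings, background correction, filters, probe choice and surface correction.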

Additional observations from a re-analysis of the deposited data

How the results depend on the processing

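Cd1d1 was the only member more than 2-fold higher, and no member was more than 2-fold lower, under each alternative tried with scaling. The median over the members lay between 0.09 (75th percentile scaling) and 0.18 (the same scaling relative to the median of tested probes, chosen after seeing the data). A shift was judged against the spot error, since there is no replicate. The median of the peptide loading list moved from 0.09 to -0.12 and that of the class II list from 0.01 to -0.25 with 75th percentile scaling, and the cause was not tested. That scaling placed the median of all tested probes at -0.08 and the probes past 2-fold at 264 higher and 1430 lower, against 438 and 739 as reported. These counts were 361 and 920 with cyclic loess and 38 and 94 with normexp and an offset of 50. With normexp alone they were 198 and 286, and with the offset alone 45 and 106. Leaving out the 6 blocks of lost signal of the FTO array gave 311 and 358 and no value for the brighter Nlrc5 probe. The 2 such blocks of the control array were left in. Raising dim signals to the lowest signal well above background on the same array, also chosen after seeing the data, left the Cd1d1 probes at 2.72 and 1.08. Raising both arrays to the higher of these lowest signals, that of the FTO array, left the brighter probe at 2.72 and took the dimmer one to 0.97. Without scaling the class I probes had differences between -0.06 and 0.61. The authors' table gave 2.72 and 1.09 for the Cd1d1 probes. No paired analysis was possible because each condition has 1 array. Low signal over background limits Cd1d1.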
